A study of Rattus norvegicus with 13 samples.

Results

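Lamins and nuclear envelope proteins of the rat left ventricle are described here through 7 genes, Lmnb1, Lmnb2, Lmna, Lbr, Emd, Tmpo and Banf1, taken as every probe of the array that carries one of these names. The family was selected on the difference of its Lmnb1 signal between the groups in these same arrays. They have 8 probes, 2 of them for Lmna, among 30367 probes in all. Left ventricles of male rats aged 45 weeks were compared between rats labelled ADBR3 overexpressing (5 rats, 7 arrays) and WT (4 rats, 6 arrays), on arrays with a single dye, Cy3. ADBR3 is the spelling in the labels, and the series title writes ADRB3, the β3-adrenergic receptor, which binds catecholamines. The promoter, the sequence introduced, the strain and the founder line are not given in the sources used here. Hearts 1 and 2 of each group are 2 labelings of the RNA of 1 rat and were averaged. ADBR3 overexpressing heart 4 and WT heart 5 are repeat hybridizations whose first array is not named, so they stand outside the comparison and are given as values. Rats are named below by group and heart number: overexpressing rats 1, 3, 5, 6 and 7, and WT rats 1, 3, 4 and 6.

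The nuclear lamina is a meshwork of lamin filaments under the inner nuclear membrane that carries the shape and stiffness of the nucleus and holds silent chromatin at its edge. A-type lamins, made from Lmna, are abundant in muscle nuclei, while the B-type lamins, made from Lmnb1 and Lmnb2, keep a lipid anchor and stay at the membrane. Emerin, the lamina-associated polypeptides made from Tmpo and the lamin B receptor sit in or at that membrane, and the small DNA-binding protein made from Banf1 links chromatin to those of them that have a LEM domain. Mutations of LMNA and EMD in people cause Emery-Dreifuss muscular dystrophy, in which the heart is affected.

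A level is the log2 of the spot signal minus the log2 of the 75th percentile of the same array, so that 0 is the signal of that percentile. Levels of different probes are not comparable with each other. The 75th percentile of the signal was 760.4 to 908.7 between the 13 arrays, 55.2% to 67.8% of spots were well above background, and 0 spots were saturated. Of 30367 probes, 17587 were read well over background in 4 or more of the 9 rats and were tested. The Adrb3 probe was well above background on 1 of 7 overexpressing and 0 of 6 WT arrays, and since the introduced sequence is not given, it does not check the labels. All 7 markers of cardiomyocytes, among them Myh6 and Tnnt2, were well above background in all 9 rats. Nothing in the labels says whether the rats of a group came from separate litters, and p-values measure only the spread between these animals.

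The sequences of 4 probes are printed because the reading of the lamin B1 result depends on what its probe holds. All are 60 bases long, lie in the coding part of their transcripts and are written 5′ to 3′ as in the array files, with positions on build rn4 as those files give them. Capitals mark a run of the repeat GAG of 12 bases or more.
Lmnb1, chr18:52505697-52505756, plus strand: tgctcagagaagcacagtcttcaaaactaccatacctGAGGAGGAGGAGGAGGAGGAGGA
Lmnb2, chr7:10316745-10316804, plus strand: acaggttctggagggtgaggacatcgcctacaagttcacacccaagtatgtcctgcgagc
Lmna, first probe, chr2:180597883-180597942, minus strand: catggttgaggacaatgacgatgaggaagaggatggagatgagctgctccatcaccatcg
Lbr, chr13:97819492-97822233, minus strand: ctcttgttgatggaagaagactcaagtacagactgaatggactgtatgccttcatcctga

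The Lmnb1 probe ends in a GAG run of 23 bases, which belongs to the glutamate-rich stretch in the tail of lamin B1. The probe begins at base 1942 of the Lmnb1 transcript. Of the probes printed, the Lmnb1 probe alone holds a run of 12 bases or more, and the longest in the Lmnb2 and first Lmna probes was 5 bases. The Lbr probe spans 2742 bases of the genome, so its ends lie in different exons. The other 4 probes are given by the transcript base at which they begin: the second Lmna probe at base 2969, Emd (X chromosome, 160351250 to 160351309) at base 1192, Tmpo (chromosome 7, 28087052 to 28087111) at base 2962, and Banf1 (chromosome 1, 208008345 to 208008404) at base 676.

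Of the 8 probes, 6 probes of 5 genes were well above background in all 9 rats. Those of Lmnb2 and Lbr were not well above background on any array (0 of 7 overexpressing and 0 of 6 WT arrays for each). Of the 6, 3 were lower and 3 higher in overexpressing rats, with a median difference of 0.02, while the median over all 17587 probes was -0.009. By limma with Benjamini-Hochberg adjustment over all of them, 0 of the 6 passed 0.05, where 0.00569% of all probes did. At an unadjusted p under 0.05 there was 1 of the 6, Lmnb1, where 9.2% of all probes were under it. The groups did not overlap at 1 of the 6, again Lmnb1, beside 3.44% of all probes. Both counts rest on Lmnb1 alone, the gene selected for its difference, so they describe the family and do not test it.

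**Figure D1:**
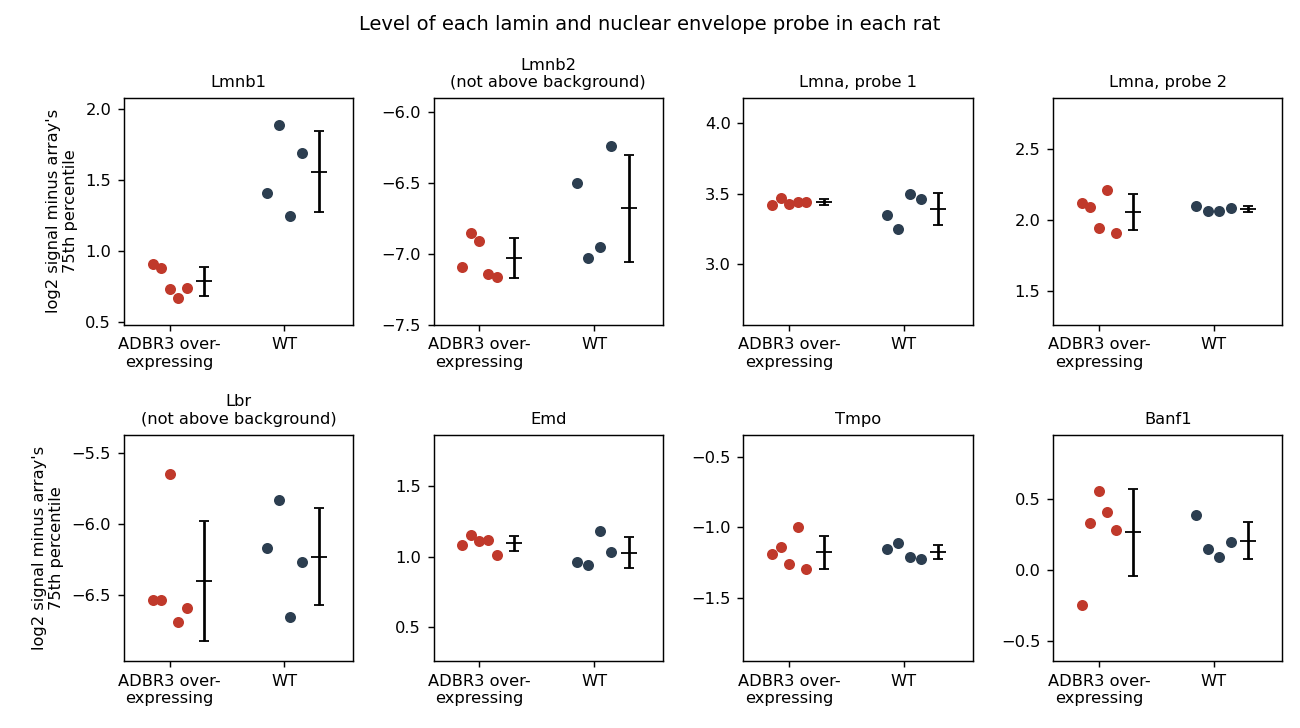
Level of each of the 8 probes in each rat (log2 signal minus the 75th percentile of the array; points are rats, ADBR3 overexpressing left and WT right, and the bar is the mean and SD). All panels have the same height in log2 units. The groups lie apart at Lmnb1 and overlap at the other 7 probes.

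Lmnb1, which encodes lamin B1, a farnesylated B-type lamin, was 0.78 lower on the log2 scale in overexpressing rats, a 1.71-fold lower signal. This difference is what brought the gene into view in earlier work on these data, so it is given as a description and not as a test. The levels were 0.91, 0.88, 0.73, 0.67 and 0.74 in overexpressing rats 1, 3, 5, 6 and 7, and 1.41, 1.89, 1.25 and 1.69 in WT rats 1, 3, 4 and 6. Every overexpressing rat lay below every WT rat, and WT rat 3 stood highest. The means were 0.78 ± 0.102 (SD, n = 5) in overexpressing and 1.56 ± 0.285 (SD, n = 4) in WT rats. The difference was -0.78 ± 0.125 (SE), with a 95% interval of -1.06 to -0.50. Its adjusted p by limma was 0.142, and it stood in place 18 of 17587 by p. In tissue RNA, fewer cells of a type and less RNA per cell cannot be told apart.

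The repeats of 1 rat give the technical spread of the Lmnb1 probe. The 2 labelings of overexpressing rat 1 measured 1.10 and 0.72, and those of WT rat 1 measured 1.40 and 1.42. The labelings of overexpressing rat 1 lay on different slides and scan days, and those of WT rat 1 on the same slide. The gap of 0.38 within overexpressing rat 1 was larger than the range over the 5 overexpressing rats, 0.24. The 2 spots of the probe on an array lay close, with a median SD of 0.0205. The repeat hybridization of an overexpressing rat, heart 4, measured 1.24, above all 6 other overexpressing arrays and just under the lowest WT array at 1.25. The repeat hybridization of a WT rat, heart 5, measured 1.51. Counted by array, the highest overexpressing and the lowest WT value were thus 0.01 apart.

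**Figure D2:**
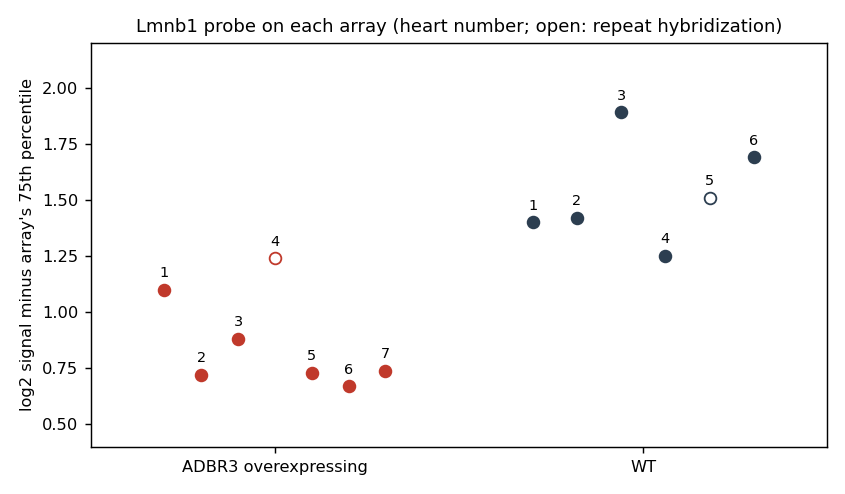
Level of the Lmnb1 probe on each of the 13 arrays (log2 signal minus the 75th percentile of the array), numbered by heart, ADBR3 overexpressing left and WT right; hearts 1 and 2 are labelings of 1 rat and open points are repeat hybridizations. The open overexpressing point, at 1.24, lies next to the lowest WT array, at 1.25.

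The arrays lay on 5 slides scanned on 2 days. Within the 3 slides that held both groups, Lmnb1 differed by -0.51 on slide 1, -0.46 on slide 3 and -0.63 on slide 4, the last counting the repeat hybridizations. These slides held 1, 1 and 3 overexpressing and 1, 3 and 1 WT arrays, and the WT array of slide 4 was the repeat hybridization. Within scan days 1 and 2 it differed by -0.47 and -0.83, where overexpressing rat 1 has an array on both. Day 1 had 3 overexpressing and 1 WT array, and day 2 had 3 and 4, without the repeat hybridizations. A fit with slide as a block gave a difference of -0.44, with an unadjusted p of 0.00319 and an adjusted p of 0.993 by limma. It left out the repeat hybridizations, so that slides 1 and 3 alone held both groups in it. The estimate rests mainly on the arrays of these slides, and most overexpressing rats and WT rat 3 add little to it. The sign was the same in every slide and day with both groups, but slides and days share arrays, so these are not independent repeats. The size was smaller within each slide with both groups than over all rats. In the block fit, mainly on slides 1 and 3, it was smaller by a factor of over 1.5.

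Other probes that hold a GAG run were also lower in overexpressing rats. The array has 21 other probes with a run of at least 18 bases, read in any of its 3 phases on the probe strand, among them 2 each of the polymeric immunoglobulin receptor gene Pigr and the potassium channel gene Kcng1. All 21 passed the filter on background, and all 21 were lower, where 53.5% of all tested probes were lower. Their median difference was -0.27, and they ranged from -0.54 to -0.13, so that Lmnb1 lay below the lowest of them. At 15 of the 21 the groups did not overlap with overexpressing rats lower, beside 2.21% of all probes. An unadjusted p under 0.05 on the lower side was found for 18 of the 21, beside 6.08% of all probes, and 0 of the 21 passed after adjustment over all probes (limma). The 2 Kcng1 probes differed by -0.31 and -0.22, and the 2 Pigr probes by -0.31 and -0.27. Many of the 21 carry only a probe identifier in place of a gene name, and whether they read separate transcripts was not tested.

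The share of lower probes was larger where the run was longer. Of 16587 probes whose longest run was 5 bases or less, 53.1% were lower, with a median difference of -0.01. Of 908 probes with runs of 6 to 8 bases 57.9% were lower, and of 47 probes with 9 to 11 bases 72.3% were lower. Of 14 probes with 12 to 14 bases 13 were lower, with a median of -0.43, and all 9 with 15 to 17 bases were lower, with a median of -0.34. The lowest difference was -1.18 with 9 to 11 bases and -0.86 with 12 to 14, both below that of Lmnb1 at -0.78. Probes with runs of the repeat AAG of 18 bases or more were lower at 19 of 19, with a median of -0.34. Lower signal was not limited to these repeats: with runs of the same length, 6 of 6 probes of ATG (median -0.31), 4 of 4 of ACT (median -0.14), 4 of 5 of AAC (median -0.17) and 2 of 2 of ATC (median -0.33) were lower. With AGC 4 of 7 were lower, with a median of -0.00, and each other repeat of 3 bases found had 1 probe.

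**Figure D3:**
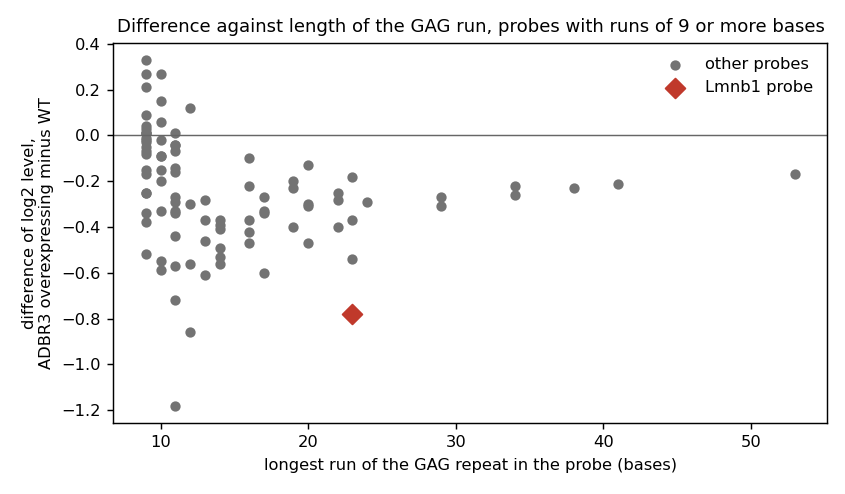
Difference between ADBR3 overexpressing and WT rats (log2 level, overexpressing minus WT) of each tested probe with a GAG run of 9 or more bases, against the length of the longest run in bases; the diamond is the Lmnb1 probe. All probes with runs of 15 or more bases lie below 0, and Lmnb1, at -0.78, is the lowest among those with 18 or more.

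The mean level of the 21 other probes was 4.66, 4.72, 4.62, 4.48 and 4.70 in overexpressing rats 1, 3, 5, 6 and 7, and 4.84, 4.97, 4.94 and 4.94 in WT rats 1, 3, 4 and 6. The groups did not overlap, as at the Lmnb1 probe. Overexpressing rat 6 was the lowest of its group in both, while among WT rats the lowest was rat 1 for this mean and rat 4 for Lmnb1. After the mean of each group was subtracted, the correlation of the single probes with Lmnb1 over the 9 rats ran from -0.51 to 0.90, with a median of 0.34. WT rats, which varied more at Lmnb1, weigh most in these correlations. Within slides 1, 3 and 4 this mean differed by -0.24, -0.10 and -0.31, and within both scan days by -0.29. With slide as a block the median difference of the 21 probes was -0.10, with 20 of 21 lower and 2 at an unadjusted p under 0.05 (limma). That fit too rests mainly on slides 1 and 3. Subtracting this mean from the Lmnb1 level of the same rat left -3.85 ± 0.0792 (SD, n = 5) in overexpressing and -3.36 ± 0.262 (SD, n = 4) in WT rats, a difference of -0.49. On that scale overexpressing rats lay between -3.96 and -3.75 and WT rats between -3.69 and -3.07. The difference left depends on the probes subtracted, since the median difference was -0.43 with runs of 12 to 14 bases and -0.34 with 15 to 17. It therefore cannot be read as the part particular to Lmnb1. The array has 1 probe for Lmnb1, and whether its signal came from Lmnb1 transcripts or from other transcripts with the repeat was not tested.

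Leukocytes, among other cells, express lamin B1, and markers are given here by cell type. Of 13 lymphocyte markers 7 were tested, and all 7 were lower in overexpressing rats, from -0.78 for Cd8a to -0.00 for Klrd1, where 53.5% of all probes were lower. By limma 0 passed the threshold and 4 were at an unadjusted p under 0.05, beside 6.08% of all probes on the lower side. The Cd8a probe was well above background on 3 of 7 overexpressing and 4 of 6 WT arrays, and 3 of the 7 markers were so in all rats. Their mean level was -3.49 to -3.12 in overexpressing and -3.13 to -2.66 in WT rats. The cytotoxic cell gene Nkg7 differed by -0.11 and the T cell receptor subunit gene Cd3d by -0.35. Cd3e, Cd2 and the B cell markers Cd79b and Ms4a1 did not reach the limit of 4 rats above background. Of 9 granulocyte and mast cell markers 5 were tested and all 5 were lower, 1 of them at an unadjusted p under 0.05 and 0 past the threshold (limma), with 3 well above background in all rats and a mean level of -3.75 to -3.11 in overexpressing and -3.32 to -2.69 in WT rats. Csf3r, Cxcr2, Mpo and Elane did not reach that limit. Of 8 macrophage markers, all tested, 6 were lower and 2 higher, with 0 at an unadjusted p under 0.05 and 0 past the threshold (limma). Cd163 differed by 0.32 and Cd68 by 0.18, while the 6 lower ones ran from -0.20 for Csf1r to -0.09 for C1qb. The mean of each of these lists overlapped between the groups. For macrophages it was -1.14 to -0.74 in overexpressing and -1.10 to -0.66 in WT rats, and differed by -0.06. Of 5 endothelial markers 4 were lower (median difference -0.03), and of 7 cardiomyocyte markers 6 were lower (median -0.03). All 5 fibroblast markers were higher (median 0.11), as were the 3 tested of 4 smooth muscle markers (median 0.11). In each of these further lists 0 were at an unadjusted p under 0.05 (limma). The part of any of these cell types in the Lmnb1 result was not tested.

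Lmna encodes lamins A and C, the A-type lamins, and its 2 probes showed no difference beyond the spread between rats. At the first probe, in the coding part, the levels were 3.42, 3.47, 3.43, 3.44 and 3.44 in overexpressing rats 1, 3, 5, 6 and 7, and 3.35, 3.25, 3.50 and 3.46 in WT rats 1, 3, 4 and 6. The overexpressing rats lay close together inside the WT range. The difference was 0.05 ± 0.0586 (SE), with a 95% interval of -0.08 to 0.18 and an adjusted p of 0.798 by limma. At the second probe the overexpressing rats measured 2.12, 2.09, 1.94, 2.21 and 1.91, and the WT rats 2.10, 2.06, 2.06 and 2.08. Here the WT rats lay close together inside the overexpressing range, the reverse of the first probe. The difference was -0.02 ± 0.0676 (SE), with an interval of -0.17 to 0.14 (limma, adjusted p = 0.958).

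Lmnb2, the other B-type lamin gene, could not be measured. Its probe lay between -7.16 and -6.85 in overexpressing and between -7.03 and -6.24 in WT rats, not well above background on any array, so no fold is given. The same held for Lbr, the lamin B receptor, a membrane protein that binds B-type lamins and heterochromatin and also acts as a sterol reductase. Its probe lay between -6.69 and -5.65 in overexpressing and between -6.66 and -5.83 in WT rats. These values do not show whether either transcript was present below the reach of the probe.

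Emd encodes emerin, a LEM domain protein of the inner nuclear membrane, and was read by 10 spots on each array. The spots of an array had an SD between 0.0414 and 0.0847. The levels were 1.08, 1.15, 1.11, 1.12 and 1.01 in overexpressing rats 1, 3, 5, 6 and 7, and 0.96, 0.94, 1.18 and 1.03 in WT rats 1, 3, 4 and 6. WT rat 4 was the highest of all 9, and the groups overlapped. The difference of 0.07 ± 0.0613 (SE) had an interval of -0.07 to 0.21 (limma, adjusted p = 0.737).

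Tmpo encodes the lamina-associated polypeptides of the LAP2 family, which have a LEM domain and bind lamins. The levels were -1.19, -1.14, -1.26, -1.00 and -1.29 in overexpressing rats 1, 3, 5, 6 and 7, and -1.15, -1.11, -1.21 and -1.22 in WT rats 1, 3, 4 and 6. Both the highest and the lowest of the 9 rats were overexpressing. The difference was -0.00 ± 0.0667 (SE), with an interval of -0.15 to 0.15 (limma, adjusted p = 0.993).

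Banf1 encodes barrier-to-autointegration factor, which binds DNA and LEM domains and helps the envelope to close around chromosomes after division. The levels were -0.25, 0.33, 0.56, 0.41 and 0.28 in overexpressing rats 1, 3, 5, 6 and 7, and 0.39, 0.15, 0.09 and 0.20 in WT rats 1, 3, 4 and 6. Overexpressing rat 1 was the lowest of all 9 rats and rat 5 the highest. The 2 labelings of overexpressing rat 1 differed by 0.22 and those of WT rat 1 by 0.31, which is as much as the range over the WT rats, 0.29. The difference of 0.06 ± 0.15 (SE) had an interval of -0.28 to 0.40, the widest of the 6 probes (limma, adjusted p = 0.931). Without overexpressing rat 5 it was -0.02.

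**Figure D4:**
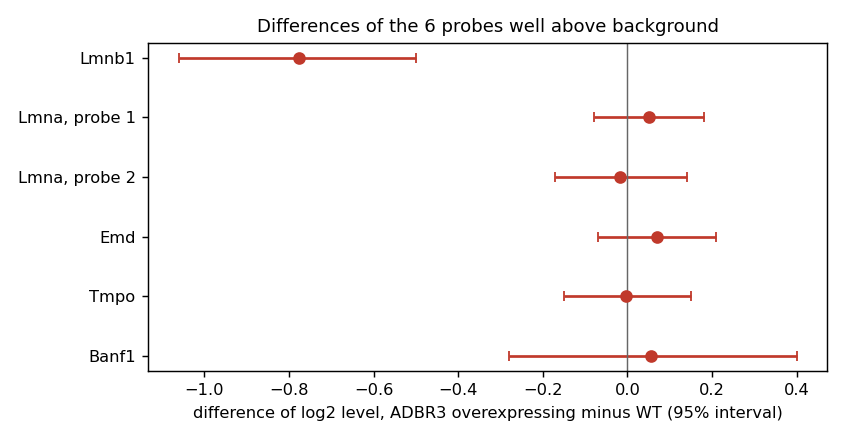
Difference of log2 level, ADBR3 overexpressing minus WT, for the 6 probes well above background, with the 95% interval from the fit over all probes. The interval of Lmnb1 runs from -1.06 to -0.50, and those of the other 5 probes hold 0.

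The pattern of Lmnb1 between rats was compared with that of other genes after the mean of each group was subtracted, so that the difference between groups plays no part. Over the 9 rats and 11080 gene symbols, the 5 highest Pearson correlations included that of Ugdh, which makes UDP-glucuronate (r = 0.959, Spearman's rho = 0.9). They also included those of Mturn (r = 0.94, rho = 0.85), the recycling endosome GTPase gene Rab11a (r = 0.933, rho = 0.833) and the histone gene H2bu1 (r = 0.906, rho = 0.9). For the first Lmna probe they were Pomt1 (r = 0.984, rho = 0.85), Pcgf3 (r = 0.979, rho = 0.967) and Phb2 (r = 0.975, rho = 0.833). These genes were picked as the highest of 11080, so the values describe likeness and carry no p. The SD of Lmnb1 was 0.285 in WT and 0.102 in overexpressing rats, and that of the first Lmna probe 0.114 and 0.0192. The Pearson correlations over the 9 rats thus rest mostly on the 4 WT rats. Between groups the 4 genes named for Lmnb1 differed by -0.12 to -0.01.

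Other genes of the nuclear envelope were taken from 7 lists with 69 genes in all, of which 57 were tested. None passed (0 of 57 with limma), 36 were higher and 21 lower in overexpressing rats, and the median difference was 0.01. At an unadjusted p under 0.05 (limma) there were 3 higher and 3 lower, beside 3.12% of all probes higher and 6.08% lower. Of the 57, only Tmem43 and Nup37 had groups that did not overlap, beside 3.44% of all probes.

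Lamin A and the B-type lamins are farnesylated and trimmed after translation. Of the 5 genes of this processing, 3 were higher and 2 lower. Fntb, the beta subunit of farnesyltransferase, averaged -0.94 ± 0.164 in overexpressing and -1.32 ± 0.233 in WT rats (SD, n = 5 and 4), a difference of 0.39 ± 0.122 (SE; limma, adjusted p = 0.43). Zmpste24, the protease that cuts prelamin A, averaged -2.85 ± 0.141 in overexpressing and -2.67 ± 0.0473 in WT rats, a difference of -0.18 (adjusted p = 0.527). Icmt, the methyltransferase that acts on the farnesylated end, differed by 0.12 at a probe that itself holds a GAG run of 12 bases. Fnta differed by -0.01. Rats of the 2 groups overlapped at all 4.

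Of the other LEM domain genes 3 were tested, all higher. Ankle2, which helps to bring Banf1 protein back to chromatin after division, differed by 0.22 (limma, adjusted p = 0.446) and Lemd2 by 0.04. Of 8 tested genes of the LINC complex, which couples the lamina to the cytoskeleton, and of torsins and their partners, 5 were higher and 3 lower. The nesprin genes Syne2 and Syne1 differed by 0.18 and -0.17, Tor1aip2 by 0.15 and the SUN protein gene Sun1 by -0.03.

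Of 5 other genes of the inner nuclear membrane or of lamin partners, 2 were higher and 3 lower. Tmem43, a membrane protein gene mutated in a form of arrhythmogenic cardiomyopathy in people, averaged 1.12 ± 0.0654 in overexpressing and 1.00 ± 0.0314 in WT rats (SD, n = 5 and 4). Its groups did not overlap, and the difference was 0.12 ± 0.0492 (SE; limma, adjusted p = 0.536). Narf differed by 0.01. Mlip, a lamin-binding protein gene of muscle, differed by -0.10 and Nemp2 by -0.06.

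Of 24 nuclear pore genes 18 were higher and 6 lower, with a median difference of 0.03 and a range from -0.21 to 0.15. Nup37 averaged -0.98 ± 0.0371 in overexpressing and -0.77 ± 0.202 in WT rats (SD, n = 5 and 4), without overlap, at a difference of -0.21 ± 0.0882 (SE; limma, adjusted p = 0.525). Nup85, of the same scaffold complex, differed by 0.15 and Nup160 by 0.12, and Nup210 by -0.14. Of 5 genes of heterochromatin partners 3 were higher and 2 lower, between -0.08 for the heterochromatin protein gene Cbx1 and 0.03 for the deacetylase gene Hdac3, with Cbx5 at -0.04 and Rb1 at 0.00. Of 7 genes of envelope assembly and mitotic kinases 2 were higher and 5 lower, from -0.31 for Vps4a, an ATPase that recycles the membrane-sealing ESCRT machinery, to 0.08 for the Banf1 kinase gene Vrk2, with Cdk1 at -0.11 and Chmp7 at 0.05.

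Lamin B1 is known to be scarce in senescent cells and plentiful in dividing ones. Of 18 tested genes of proliferation 10 were higher and 8 lower, with a median difference of 0.05, and 0 passed by limma. The list mean was -3.00 to -2.66 in overexpressing and -2.90 to -2.70 in WT rats. E2f8, a repressor of cell cycle genes, averaged -2.87 ± 0.143 in overexpressing and -2.39 ± 0.115 in WT rats (SD, n = 5 and 4), a difference of -0.49 ± 0.0862 (SE; limma, adjusted p = 0.192), the 1 gene of the list under an unadjusted p of 0.05. Tyms differed by -0.25, Mcm7 by 0.15 and Mcm4 by 0.18. Of 7 tested senescence genes 5 were higher and 2 lower, with 0 past the threshold and 0 at an unadjusted p under 0.05 (limma). Cdkn1a, the gene of the cell cycle inhibitor p21, differed by -0.12, Cdkn2a by -0.01 and Glb1 by 0.11, with the groups overlapping at each.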

How the data were processed

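Left ventricle RNA of 5 ADBR3 overexpressing and 4 WT rats was measured on 13 1-colour Agilent arrays (design 028279). Per the file headers, the authors' deposited scanner files hold spot intensity from Feature Extraction 10.7.1.1, background-subtracted and detrended, with no scaling between arrays. Values of the deposited series table are on a natural log scale, read from slopes of 0.986 to 1.063 against logged spot medians. The sources used here do not give its scaling, and its column medians are 5.695 to 5.730. Flags for background, saturation and outliers are those of the scanner software in the deposited files, used as other values of 0 or 1.

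Log2 of the processed signal minus that of the array's 75th percentile was averaged over the spots of a probe, without outlier spots where another remained. A probe counted as above background where a share of 0.5 or more of its spots carried the flag on all arrays of a rat. The comparison used limma 3.58.1 (lmFit, eBayes; R 4.3.3), checked on simulated data, with Benjamini-Hochberg adjustment over 17587 probes. A listed gene was read by its probe with the highest mean; symbols were matched through RefSeq names (assembly GRCr8), which hold all 7 genes.

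Named genes are the 7 members, the 2 genes of smallest p in each direction of each list, and the 5 and 3 genes most like Lmnb1 and Lmna. Pigr, Kcng1 and the leukocyte markers were named, and the other cell type lists given, after their values were seen. A few genes that the rule names are not reported here. The members and lists were chosen with earlier results of these data known, and the GAG run of 18 bases was chosen after the Lmnb1 probe was read. Alternatives covered scaling, background correction, filters, labelings, variance model, slide, scan day, heart number and each rat left out. The number of arrays limits the precision.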

Additional observations from a re-analysis of the deposited data

Results flagged for a closer look

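Among 16 sets of values (8 probes in 2 groups), 1 held a rat far from the others by Dixon's criterion at 95%, where chance marks about 1 set in 20. The Lbr probe measured -5.65 in overexpressing rat 5, while the other overexpressing rats lay between -6.69 and -6.54, a gap of 0.85 of the range of the group. The probe was not well above background on any array.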

How the results depend on the processing

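Lmnb1 stayed lower in overexpressing rats in all 24 alternatives, from -0.88 to -0.44, with adjusted p from 0.0607 to 0.993, and no probe of the 7 genes passed in any (0 by limma, with Lmnb1 at an unadjusted p under 0.05 in the main comparison). Without 1 rat each it ran from -0.88 to -0.67. The 21 other probes with a GAG run were lower in 19 to 21 under the 24 settings (with 19 or 20 tested in 2 of them, and 20 of 21 with slide as a block), a check added after seeing the data. Over all probes 1 passed, against 2 with normexp and quantile normalization, 6 with a trended and robust variance, 0 with slide as a block, 0 on rats 1, 3 and 6 with or without the heart number as a block, and 0 to 14 without 1 rat each. The replicate block put Lmnb1 at -0.85 (limma, adjusted p = 0.486), against -0.85 without it. Deviations from the group means correlated at 0.12, 0.04 and 0.15 between rats of the same number. Rats of different numbers were not compared, so these values do not settle whether the numbers pair the rats.

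Small differences changed sign, for which the cause was not tested. Tmpo was 0.04 scaled to the array median, 0.00 by quantiles, 0.01 after normexp scaled to the 75th percentile, 0.02 after normexp scaled by quantiles, 0.00 in the authors' table, 0.01 with hearts 2 alone, 0.01 with scan day as a block, 0.05 on rats 1, 3 and 6 with and without the replicate block, and -0.05 to 0.03 without 1 rat each. The second Lmna probe was 0.03 with median scaling, 0.06 on rats 1, 3 and 6 with and without the block, and -0.06 to 0.02 without 1 rat each. The first Lmna probe was -0.02 and Banf1 -0.25 with slide as a block, a fit that rests mainly on slides 1 and 3. Banf1 was -0.08 on rats 1, 3 and 6 with and without the block, and -0.02 to 0.19 without 1 rat each. The share of higher probes at an unadjusted p under 0.05 was 33.9%, against 63.2% scaled to the array median, 43.9% by quantiles, and, after normexp, 25.4% by the 75th percentile and 41% by quantiles. Signal at background limits Lmnb2 and Lbr.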
